A study of Mus musculus with 12 samples.

Results

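The effect of treadmill exercise on muscle was examined by RNA sequencing over both genotypes at once, with the sequencing lane taken into account. All 12 muscle samples of the study entered: 6 from treadmill-exercised mice (3 NRF2-KO and 3 wild type) against 6 from sedentary mice (3 NRF2-KO and 3 wild type). All mice were male, 5 months old and of C57BL/6 background, and NRF2-KO animals lack NRF2, the transcription factor encoded by Nfe2l2 that drives antioxidant and detoxification genes. The labels name neither the muscle, the length of the exercise programme nor the interval between the last run and sampling, and they do not say how the NRF2-KO allele was made. They list 3 samples per group with no further word on separate animals, so each p-value measures the spread between these samples. Samples were chosen by label alone: every library was assigned by its exercise and genotype label, and none was set aside.

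Skeletal muscle responds to running on several time scales. Within hours, contracting fibres induce immediate early genes, heat shock proteins, the coactivator Ppargc1a and regulators of fuel choice such as Pdk4; repeated training raises mitochondrial content and shifts fibre type, while loading is sensed at the Z-disc, where alpha-actinin anchors actin filaments and LIM-domain proteins relay mechanical strain. Low oxygen in working muscle acts through hypoxia-inducible factors, which prolyl hydroxylases mark for destruction.

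Total counts per library were 21232040 to 29990968, and 14194 of 47729 genes passed the filter on low counts. Nfe2l2 had 60 to 84 counts per NRF2-KO treadmill library, 54 to 60 per NRF2-KO sedentary library, 830 to 1128 per wild-type treadmill library and 887 to 1275 per wild-type sedentary library, so every library matched its genotype label. All 11 fast fibre markers were measured, and their summed level was 132600 to 154100 CPM (counts scaled to a common library total) in treadmill and 122900 to 141600 CPM in sedentary muscle. Lane 3 held 2 treadmill and 3 sedentary libraries, and lane 4 held 3 treadmill and 2 sedentary libraries. Wild-type treadmill replicate 1 was on lane 8 and wild-type sedentary replicate 1 on lane 7, so within that pair lane and exercise cannot be told apart. These 2 libraries stood apart from the rest on the first principal component (22.4% of the variance), and 2693 genes (19%) differed between lanes 7 and 8 and lanes 3 and 4, 1305 higher (9.19%) and 1388 lower (9.78%), while 6 genes (0.0423%) differed between lanes 4 and 3. Lanes 7 and 8 were therefore 1 level of the lane term, and within-lane values are given for the genes that passed and beside several other results. Lanes 7 and 8 held no other library. In differences between them and lanes 3 and 4, here and below, lane and these 2 samples cannot be told apart.

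Treadmill exercise went with few changes in steady-state mRNA. In edgeR's quasi-likelihood test with genotype and lane as terms, 4 of 14194 genes passed an adjusted p of 0.05 (0.0282%), all of them lower in treadmill muscle, and 0 were higher (0%). At an unadjusted p under 0.05, 1432 genes (10.1%) stood out, 616 higher (4.34%) and 816 lower (5.75%), where an even spread of p would give 710. Without lane as a term that number was 644, and 0 genes passed. The median absolute log2 fold change over all genes was 0.07, with a median SE of 0.08, and 49.4% of log2 fold changes lay above 0; 122 genes had a fold change over 1.5 in either direction. The CPM of 22 genes (0.155%) did not overlap between the 6 treadmill and the 6 sedentary libraries, 11 in each direction (0.0775% each).

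**Figure D1:**
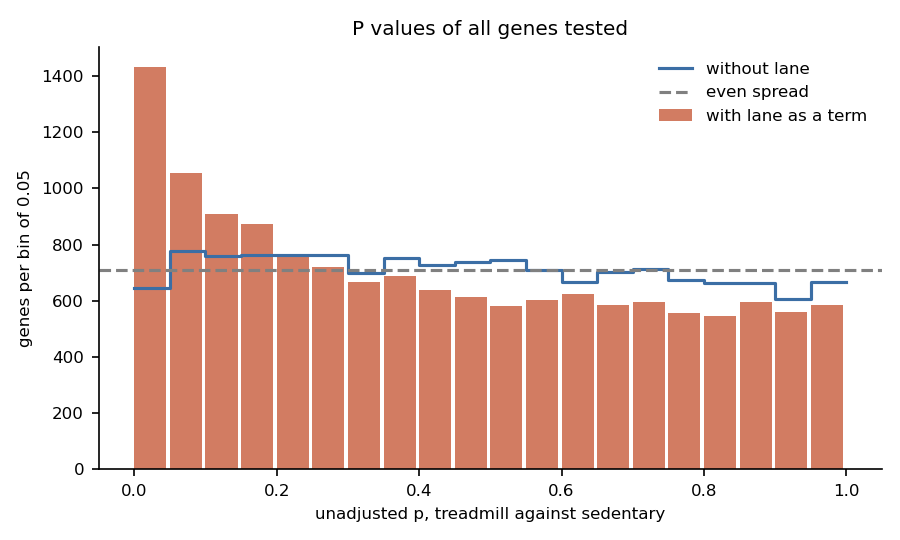
Unadjusted p-values of all 14194 genes for treadmill against sedentary muscle, in bins of 0.05 (x axis, p; y axis, genes per bin). Bars show the fit with lane as a term and the stepped line the fit without it; the dashed line is an even spread. The first bin holds 1432 genes with lane and 644 without.

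The 4 genes that fell were Cyfip2, Lmcd1, Egln3 and Actn2. Their promoters are shown because these are the only genes that passed and they moved in one direction in both genotypes. The sequences are from RefSeq on GRCm38.p6, from 250 bases before to 50 bases after the annotated start: Cyfip2 at chr11:46312309-46312608 (minus strand), Lmcd1 at chr6:112273508-112273807 (plus strand), Egln3 at chr12:54203825-54204124 (minus strand) and Actn2 at chr13:12340683-12340982 (minus strand), each written 5′ to 3′ on the gene's strand. Capitals mark matches to the E-box CANNTG, to which basic helix-loop-helix factors bind, and to ACGTG, the core of the hypoxia response element.
Cyfip2: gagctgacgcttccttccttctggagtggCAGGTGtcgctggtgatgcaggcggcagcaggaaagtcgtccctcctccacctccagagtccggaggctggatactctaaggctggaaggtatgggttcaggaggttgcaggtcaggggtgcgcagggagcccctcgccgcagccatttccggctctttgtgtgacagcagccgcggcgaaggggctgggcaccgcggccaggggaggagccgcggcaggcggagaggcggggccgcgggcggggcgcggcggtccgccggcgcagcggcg
Lmcd1: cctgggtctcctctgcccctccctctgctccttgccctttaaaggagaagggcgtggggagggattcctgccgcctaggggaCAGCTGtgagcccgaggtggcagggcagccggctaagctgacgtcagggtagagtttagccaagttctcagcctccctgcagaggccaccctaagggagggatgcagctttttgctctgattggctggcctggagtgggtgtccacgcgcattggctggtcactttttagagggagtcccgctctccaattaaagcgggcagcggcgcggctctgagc
Egln3: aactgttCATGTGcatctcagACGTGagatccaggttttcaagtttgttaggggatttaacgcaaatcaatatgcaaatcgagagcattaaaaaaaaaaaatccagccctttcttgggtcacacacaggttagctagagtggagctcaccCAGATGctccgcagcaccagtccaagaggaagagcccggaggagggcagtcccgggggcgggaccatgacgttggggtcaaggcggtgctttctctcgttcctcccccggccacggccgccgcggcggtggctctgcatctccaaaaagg
Actn2: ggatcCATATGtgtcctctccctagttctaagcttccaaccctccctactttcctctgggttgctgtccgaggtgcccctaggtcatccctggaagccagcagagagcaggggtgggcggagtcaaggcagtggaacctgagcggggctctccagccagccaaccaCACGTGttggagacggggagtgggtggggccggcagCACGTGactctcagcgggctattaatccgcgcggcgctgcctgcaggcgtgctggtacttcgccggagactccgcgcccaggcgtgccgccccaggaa

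An E-box was found once in the Cyfip2 and Lmcd1 windows, at 2 places in that of Egln3 and at 3 in that of Actn2; 63.5% of 10493 promoters of the same length hold one. On either strand, ACGTG was found in Egln3 at position -229 and in Actn2 at positions -84 and -48, and 25.4% of promoters hold it. Both matches in Actn2 are palindromic CACGTG sites and so overlap the E-boxes counted there. CATTCC (the MCAT element), AAGGTCA (the estrogen-related receptor half-site) and the MEF2 core had no match in any of the 4 windows, and are held by 12.2%, 3.12% and 3.13% of promoters.

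Cyfip2 encodes a subunit of the WAVE complex, which starts branched actin filaments. Cyfip2 (GRCm38, chromosome 11, 46193850 to 46312859, minus strand) had 2.34, 2.48 and 3.35 CPM in NRF2-KO treadmill and 2.17, 1.92 and 2.04 CPM in wild-type treadmill muscle, against 3.84, 3.42 and 5.47 CPM in NRF2-KO sedentary and 4.50, 3.11 and 4.53 CPM in wild-type sedentary muscle. NRF2-KO treadmill replicate 3 lay above the lowest sedentary library, and the other 5 treadmill libraries lay below all sedentary ones. It averaged 2.39 ± 0.51 CPM in treadmill and 4.14 ± 0.86 CPM in sedentary muscle (SD, n = 6 each), and the log2 fold change was -0.87 (SE 0.11, edgeR adjusted p = 0.0136). By genotype the log2 fold change was -0.77 (SE 0.15) in NRF2-KO and -0.98 (SE 0.16) in wild type. Within lane 3 it was -0.65, within lane 4 -0.99, and lane 8 against lane 7 gave -1.02. Its level lies below the 5 CPM that the rule for named genes asks for, so it was chosen after its values were seen.

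Lmcd1 encodes a LIM-domain protein known in mouse heart and muscle as an activator of calcineurin signalling. Lmcd1 (GRCm38, chromosome 6, 112273758 to 112330425, plus strand) had 47.5, 66.4 and 62.5 CPM in NRF2-KO treadmill and 49.1, 47.1 and 71.4 CPM in wild-type treadmill muscle, against 71.5, 87.2 and 95.5 CPM in NRF2-KO sedentary and 78.1, 57.1 and 81.1 CPM in wild-type sedentary muscle. The NRF2-KO groups did not overlap, whereas wild-type treadmill replicate 3 lay above wild-type sedentary replicate 2. The averages were 57.3 ± 10.7 CPM in treadmill and 78.4 ± 13.3 CPM in sedentary muscle, with a log2 fold change of -0.52 (SE 0.08, edgeR adjusted p = 0.0451). It was -0.68 in NRF2-KO and -0.38 in wild type, a difference with an unadjusted p of 0.0470 in edgeR that did not pass adjustment (adjusted p = 0.909). Within lanes the log2 differences were -0.54 (lane 3), -0.41 (lane 4) and -0.67 (lane 8 against lane 7).

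Egln3 encodes PHD3, a prolyl hydroxylase that acts on hypoxia-inducible factors and is itself one of their targets. Egln3 (GRCm38, chromosome 12, 54178981 to 54203860, minus strand) had 21.97, 29.7 and 31.1 CPM in NRF2-KO treadmill and 24.8, 28.6 and 33.2 CPM in wild-type treadmill muscle, against 36.6, 36.1 and 40.8 CPM in NRF2-KO sedentary and 36.2, 31.6 and 39.2 CPM in wild-type sedentary muscle. One treadmill library, wild-type replicate 3, lay above the lowest sedentary library. The averages were 28.2 ± 4.1 CPM in treadmill and 36.8 ± 3.2 CPM in sedentary muscle, with a log2 fold change of -0.43 (SE 0.07, edgeR adjusted p = 0.0451). By genotype it was -0.56 in NRF2-KO and -0.32 in wild type, and within lanes -0.47, -0.35 and -0.54 in the same order as above.

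Actn2 encodes alpha-actinin 2, which cross-links actin filaments at the Z-disc in all fibre types. Actn2 (GRCm38, chromosome 13, 12269426 to 12340760, minus strand) had 274, 328 and 324 CPM in NRF2-KO treadmill and 312, 283 and 333 CPM in wild-type treadmill muscle, against 389, 378 and 374 CPM in NRF2-KO sedentary and 434, 342 and 373 CPM in wild-type sedentary muscle. No treadmill library overlapped a sedentary one. The averages were 309 ± 25 CPM in treadmill and 382 ± 30 CPM in sedentary muscle, and the log2 fold change was -0.33 (SE 0.05, edgeR adjusted p = 0.0473). It was -0.35 in NRF2-KO and -0.30 in wild type, and within lanes -0.39, -0.18 and -0.48.

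**Figure D2:**
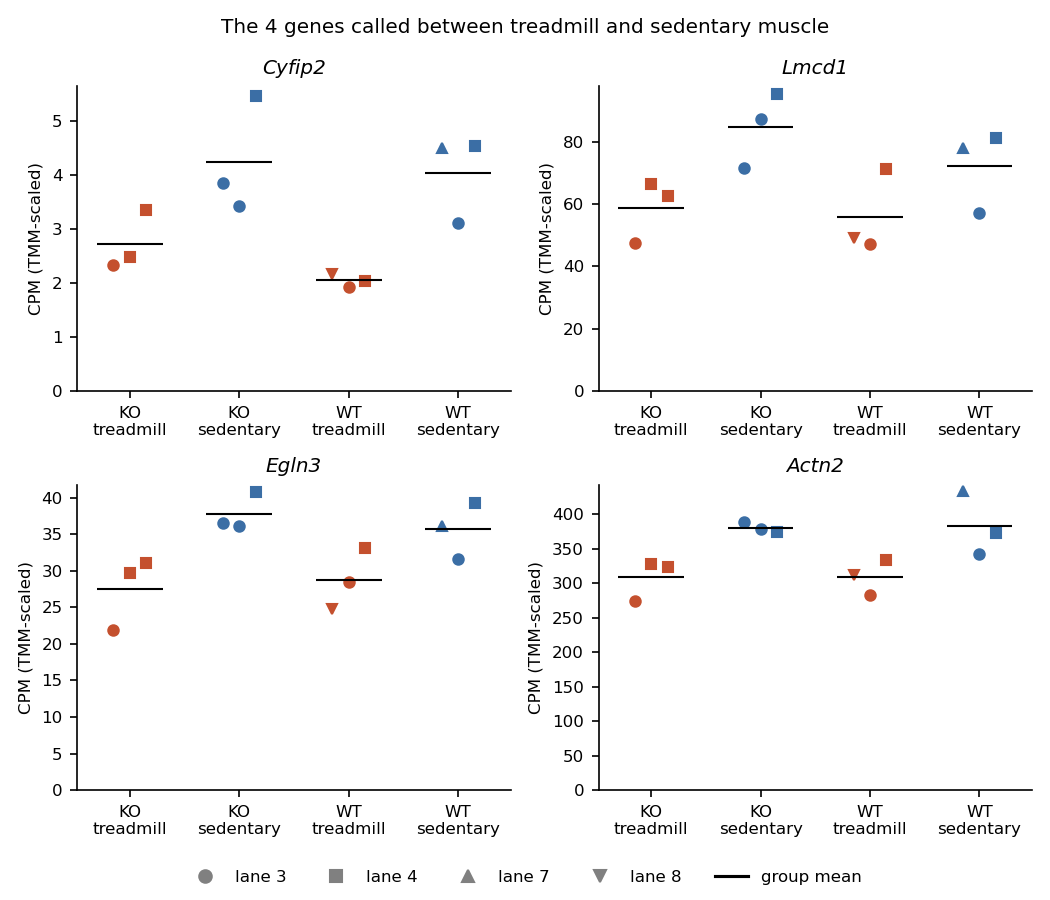
CPM, scaled by TMM, of the 4 genes that passed, in each library by group (y axis from 0). Marker shape gives the lane, colour the exercise group and bars the group means; the Actn2 treadmill libraries (274 to 333 CPM) all lie below the sedentary ones (342 to 434 CPM).

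In annotated transcripts none of the 4 genes shares exon bases with another gene, and at most 0.1% of their 50-base stretches occur elsewhere. All 4 log2 fold changes were negative under each of 28 alternatives, but the calls themselves were less stable: without lane as a term none passed (adjusted p = 0.61 for Cyfip2 and 0.952 for the other 3 in edgeR). Leaving out wild-type treadmill replicate 1, wild-type sedentary replicate 1 or NRF2-KO sedentary replicate 3 also left 0 genes (Cyfip2 at adjusted p = 0.0506, 0.0508 and 0.094 in edgeR). No gene passed the test of the difference in treadmill effect between NRF2-KO and wild type (0%; 768 genes, or 5.41%, at an unadjusted p under 0.05). Taken by genotype in that fit, 26 genes (0.183%) passed in NRF2-KO and 0 (0%) in wild type.

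Since fewer than 10 genes passed in either direction, the genes with the next smallest p in each direction, among those of at least 5 CPM with the same sign in both genotypes, are given as values: 7 on the lower and 9 on the higher side. None of them passed in edgeR, with adjusted p from 0.0595 to 0.132. On the lower side, Esrrg, an orphan nuclear receptor that drives genes of oxidative metabolism, had 15.5 to 22.5 CPM (median 17.6) in treadmill and 19.7 to 29.8 CPM (median 21.1) in sedentary muscle (log2 fold change -0.37, SE 0.06). Rap1gap2, a GTPase activator for Rap1, was the only one of the 16 whose groups did not overlap, with 6.19 to 7.15 CPM (median 6.84) in treadmill and 8.16 to 9.19 CPM (median 8.70) in sedentary muscle (log2 fold change -0.36). Myom3, an M-band protein, had 18.3 to 30.6 CPM (median 21.9) in treadmill and 21.99 to 35.3 CPM (median 31.7) in sedentary muscle (log2 fold change -0.50). Bdh1, an enzyme of ketone body metabolism, had a log2 fold change of -0.43, Foxo6os, a non-coding RNA, of -0.40, Atp1b1, a subunit of the sodium pump, of -0.37, and Hmcn2, a hemicentin of the extracellular matrix, of -0.37. In lanes 7 and 8 Hmcn2 exceeded its level in lanes 3 and 4 (by 0.69 on the log2 scale, edgeR adjusted p = 0.000343).

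On the higher side, Slc2a3, the glucose transporter GLUT3, had 21.1 to 27.2 CPM (median 23.8) in treadmill and 16.2 to 25.5 CPM (median 18.6) in sedentary muscle (log2 fold change 0.36). Pfkfb1, which makes and breaks down a fructose bisphosphate that activates glycolysis, had 86.2 to 99.8 CPM (median 92.4) in treadmill and 71.1 to 90.6 CPM (median 79.3) in sedentary muscle (log2 fold change 0.25). Fbp2, the muscle fructose bisphosphatase, had 41.8 to 77.4 CPM (median 68.8) in treadmill and 40.3 to 68.8 CPM (median 54.4) in sedentary muscle, ranges that overlapped widely (log2 fold change 0.30). Mib1, a ubiquitin ligase for Notch ligands, had 225 to 352 CPM (median 257) in treadmill and 165 to 258 CPM (median 207) in sedentary muscle (log2 fold change 0.40). The others were Cep290 (0.29), a centrosomal protein, Golm1 (0.27), a Golgi membrane protein, Smyd2 (0.25), a lysine methyltransferase, Art3 (0.23), of the ADP-ribosyltransferase family, and Dhrs7c (0.19), a dehydrogenase of the sarcoplasmic reticulum.

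**Figure D3:**
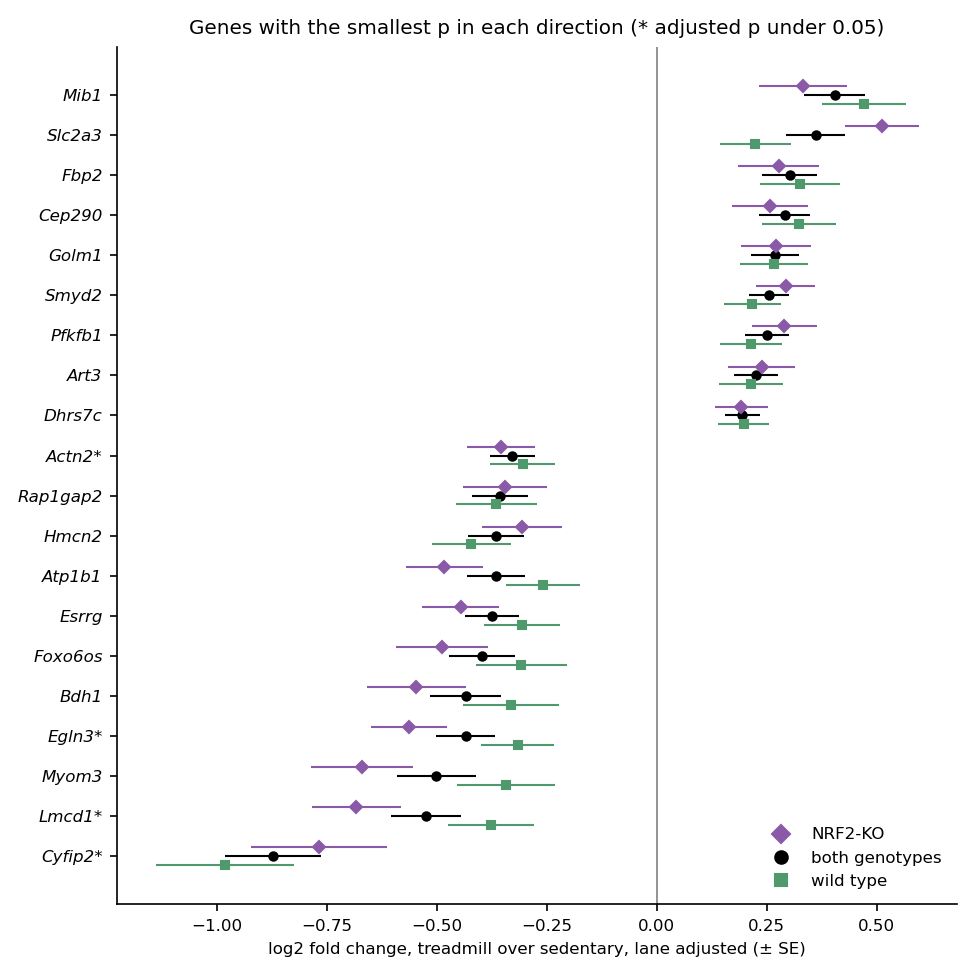
Lane-adjusted log2 fold change, treadmill over sedentary, of the 4 genes that passed (asterisks) and of the 7 lower and 9 higher genes given as values. Diamonds are NRF2-KO, circles both genotypes and squares wild type, with bars of 1 SE; every gene shown has the same sign in both genotypes.

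Exons of Smyd2, Golm1, Atp1b1, Bdh1, Cep290, Art3 and Pfkfb1 overlap genes on the opposite strand in part, and the library kit does not mark strand, so reads of each such pair cannot be told apart.

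The usual markers of recent exercise did not pass. Ppargc1a, the coactivator of mitochondrial biogenesis, had 41.1 to 66.7 CPM (median 51.6) in treadmill and 43.0 to 56.0 CPM (median 51.2) in sedentary muscle (log2 fold change 0.04, SE 0.08, edgeR adjusted p = 0.894). Pdk4, which blocks entry of pyruvate into the mitochondrial cycle, had 238 to 1009 CPM (median 779) in treadmill and 470 to 835 CPM (median 559) in sedentary muscle (0.25, SE 0.23; 0.54, 0.02 and -0.07 within lane 3, lane 4 and lane 8 against lane 7). For both genes the sedentary range lay within the treadmill range. Log2 fold changes were 0.00 (SE 0.10) for Hk2, hexokinase 2, -0.12 (SE 0.06) for Vegfa, the angiogenic growth factor, 0.26 (SE 0.13) for Ucp3, a mitochondrial uncoupling protein, and 0.09 (SE 0.08) for Myh4, the fastest myosin.

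Nr4a3, Fos and Hspa1b, which contraction induces early, had negative values. Nr4a3, an orphan nuclear receptor, had 1.92 to 7.97 CPM (median 2.97) in treadmill and 2.57 to 6.47 CPM (median 5.18) in sedentary muscle (log2 fold change -0.59, SE 0.22), and its log2 difference was -0.43 in lane 3, -0.29 in lane 4 and -1.52 for lane 8 against lane 7. Fos had 2.47 to 6.59 CPM (median 3.58) in treadmill and 3.62 to 5.81 CPM (median 4.27) in sedentary muscle (-0.31, SE 0.16), with -0.63, -0.23 and 0.00 within the same lanes. Hspa1b, an inducible HSP70, had 0.98 to 2.17 CPM (median 1.43) in treadmill and 0.99 to 4.26 CPM (median 1.92) in sedentary muscle (-0.64, SE 0.20), with -0.34, -0.32 and -1.53 within lanes. The values of Nr4a3 and Hspa1b were thus largest in the pair in which lane and exercise cannot be told apart. For Hspa1b, 62.3% of its 50-base stretches occur in another gene's transcripts, so its count is uncertain. None of these 3 passed (edgeR adjusted p = 0.401, 0.54 and 0.331).

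Of the 27 measured immediate early genes 0 passed, 22 lay below 0 and the median log2 fold change was -0.18, where the median over all genes tested was 0.00. At an unadjusted p under 0.05, 0 were higher and 8 lower (29.6%), beside 4.34% and 5.75% of all genes. The same shares of all genes stand beside such counts in every list below. Ccn1, a matricellular protein induced by stretch, had 12.4 to 17.99 CPM (median 13.5) in treadmill and 15.7 to 19.4 CPM (median 17.2) in sedentary muscle (log2 fold change -0.31, SE 0.06, edgeR adjusted p = 0.0701). Chosen after their values were seen, the transcription factors Egr1 and Atf3 had log2 fold changes of -0.72 and -0.50 (edgeR adjusted p = 0.0927 and 0.103). The list median was -0.04 in NRF2-KO and -0.23 in wild type, and within lanes -0.12 (lane 3), -0.17 (lane 4) and -0.19 (lane 8 against lane 7). These genes were also higher in lanes 7 and 8 (median log2 difference 0.49).

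Heat shock proteins and their co-chaperones showed 0 of 32 members passing, with a median of -0.07 and 0 higher and 9 lower (28.1%) at an unadjusted p under 0.05. Within lanes the median was -0.09 (lane 3), 0.01 (lane 4) and -0.07 (lane 8 against lane 7). Hspb7, a small heat shock protein of striated muscle, had 136 to 242 CPM (median 162) in treadmill and 164 to 288 CPM (median 217) in sedentary muscle (log2 fold change -0.40, SE 0.11). It was -0.66 in NRF2-KO and -0.16 in wild type, a difference that did not pass adjustment in edgeR (adjusted p = 0.804). The 29 genes of the unfolded protein and integrated stress responses had a median of -0.03, with 0 higher and 4 lower, and Pdia3, a disulfide isomerase, had the smallest p (-0.18).

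The list of mechanical stress and Z-disc genes held a gene that passed and members pointing both ways. Of 24 measured members 1 fell (Lmcd1), 0 rose, and the median was -0.17; at an unadjusted p under 0.05, 3 were higher and 10 lower. Chosen after their values were seen, members Fhl2, Ankrd2, Xirp1, Csrp3 and Actc1 had log2 fold changes of -0.75, -0.50, -0.39, -0.52 and -0.59. Fhl2, a LIM-domain protein, had 1.91 to 4.00 CPM (median 2.70) in treadmill and 2.77 to 6.28 CPM (median 4.35) in sedentary muscle (edgeR adjusted p = 0.0595). Ankrd2, an ankyrin repeat protein induced by stretch, had 50.7 to 85.9 CPM (median 62.9) in treadmill and 57.7 to 99.7 CPM (median 94.4) in sedentary muscle. The 3 on the higher side at an unadjusted p under 0.05 were the Z-disc genes Myoz1, Tcap and Myot (log2 fold changes 0.16, 0.16 and 0.14), while Myoz2 and Flnc, of the Z-disc too, had -0.28 and -0.17. Within lanes the list median was -0.09, -0.04 and -0.07.

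All 9 slow fibre markers lay below 0 (median log2 fold change -0.29; 0 higher and 3 lower at an unadjusted p under 0.05) and 10 of 11 fast fibre markers above 0 (median 0.09; 3 higher and 0 lower), and 0 passed in either list. Atp2a2, the slow-fibre calcium pump, had 85.0 to 91.4 CPM (median 87.5) in treadmill and 81.2 to 134 CPM (median 107) in sedentary muscle (log2 fold change -0.32, SE 0.08; -0.04, -0.47 and -0.56 within lane 3, lane 4 and lane 8 against lane 7). Tnnt3, fast troponin T, had a log2 fold change of 0.17 (SE 0.05). The slow-fibre median was not the same within lanes: it was 0.11 in lane 3, -0.52 in lane 4 and -0.42 for lane 8 against lane 7. The fast-fibre median was -0.01, 0.17 and 0.20 in the same order. Summed slow-marker levels overlapped, at 587 to 829 CPM (median 651) in treadmill and 563 to 995 CPM (median 835) in sedentary muscle. In bulk muscle, fewer cells of a type and less RNA per cell cannot be told apart.

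Myh7, the slow myosin heavy chain, had 26.2 to 69.9 CPM (median 44.6) in treadmill and 33.8 to 76.5 CPM (median 51.7) in sedentary muscle, a pooled log2 fold change of -0.18 (SE 0.22; 0.44, -0.52 and -1.03 within lane 3, lane 4 and lane 8 against lane 7). It was 0.38 in NRF2-KO and -0.75 in wild type, a difference that did not pass adjustment in edgeR (adjusted p = 0.604). Of the 50-base stretches of Myh7 and Myh4, 15.6% and 18.9% occur in other transcripts. Of the exon bases of Myh7, 13.3% overlap genes on the opposite strand. The counts of both genes are therefore uncertain. Of the wider list of 21 fast and slow sarcomere isoforms 1 fell (Actn2) and 0 rose (median -0.13; 4 higher and 6 lower at an unadjusted p under 0.05). That median was -0.01 in lane 3, 0.05 in lane 4 and -0.25 for lane 8 against lane 7. By genotype it was -0.004 in NRF2-KO and -0.10 in wild type.

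Extracellular matrix genes, the collagens and their partners, lay below 0 with 1 exception. Of 34 measured members 0 passed and 33 lay below 0; at an unadjusted p under 0.05, 0 were higher and 19 lower (55.9%), and the median log2 fold change was -0.21. Serpinh1, the collagen chaperone HSP47, had 34.6 to 52.3 CPM (median 43.0) in treadmill and 36.6 to 63.9 CPM (median 54.7) in sedentary muscle (log2 fold change -0.33, SE 0.07, edgeR adjusted p = 0.0927). The median was -0.25 in NRF2-KO and -0.17 in wild type, and within lanes -0.16 (lane 3), -0.31 (lane 4) and 0.01 (lane 8 against lane 7). These genes were higher in lanes 7 and 8 (median log2 difference 0.54), and their summed level was 2333 to 3531 CPM (median 2726) in treadmill and 2513 to 3287 CPM (median 3092) in sedentary muscle.

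Other cells of the tissue were followed by their markers. Of 18 macrophage and antigen presentation markers 0 passed and 16 lay below 0, with a median of -0.23; 0 were higher and 4 lower at an unadjusted p under 0.05. These 4 were Cd74, H2-Ab1, H2-Eb1 and H2-Aa, all of the class II antigen presentation pathway, and Cd74, the invariant chain, had 27.7 to 59.9 CPM (median 33.7) in treadmill and 33.5 to 61.1 CPM (median 53.3) in sedentary muscle (log2 fold change -0.45, SE 0.13). The 2 members above 0 were Mrc1 and Cd163 (0.05 and 0.00), receptors of resident macrophages. The list's summed level was 238 to 604 CPM (median 331) in treadmill and 291 to 542 CPM (median 448) in sedentary muscle. It was higher in lanes 7 and 8 (median log2 difference 0.78), and its treadmill median was -0.20 in lane 3, -0.49 in lane 4 and 0.32 for lane 8 against lane 7. The part of macrophage content in the values of matrix and interferon genes was not tested.

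Fibroblast markers (14 measured) had a median of -0.12 and tendon cell markers (10 measured) one of -0.14, each with 0 higher and 2 lower at an unadjusted p under 0.05; Col1a1 (-0.19) and Col12a1 (-0.27) had the smallest p. Endothelial (12), smooth muscle and pericyte (10), Schwann cell (10) and adipocyte markers (12) had medians of -0.05, 0.01, -0.02 and -0.02, with 0 at an unadjusted p under 0.05 in any of these lists. The adipocyte median combined -0.23 in NRF2-KO (10 of 12 below 0) and 0.25 in wild type (10 of 12 above 0), and the endothelial median -0.12 in NRF2-KO and 0.09 in wild type. Erythroid markers (8) had a pooled median of 0.06 that combined -0.56 in NRF2-KO and 0.62 in wild type. Of the neutrophil, lymphocyte and keratinocyte markers 3 of 10, 1 of 12 and 1 of 6 were measured, with summed levels of at most 2.04, 0.59 and 3.11 CPM in treadmill and 2.10, 0.68 and 2.76 CPM in sedentary muscle.

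Interferon-stimulated genes had 0 of 29 members passing, 26 below 0, a median of -0.13 and 0 higher and 7 lower at an unadjusted p under 0.05. The list median was -0.25 in NRF2-KO (29 of 29 below 0) and -0.07 in wild type (18 of 29 below 0). Rsad2, an antiviral enzyme, had the smallest p (log2 fold change -0.41, SE 0.11), at -0.68 in NRF2-KO and -0.13 in wild type, without a difference that passed (edgeR adjusted p = 0.759). Myokines, the secreted factors of muscle, had 0 of 17 passing and a median of -0.13, with Erfe, erythroferrone, at -0.83 (SE 0.29) on levels under 1.5 CPM (-0.11, -0.75 and -2.40 within lane 3, lane 4 and lane 8 against lane 7).

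**Figure D4:**
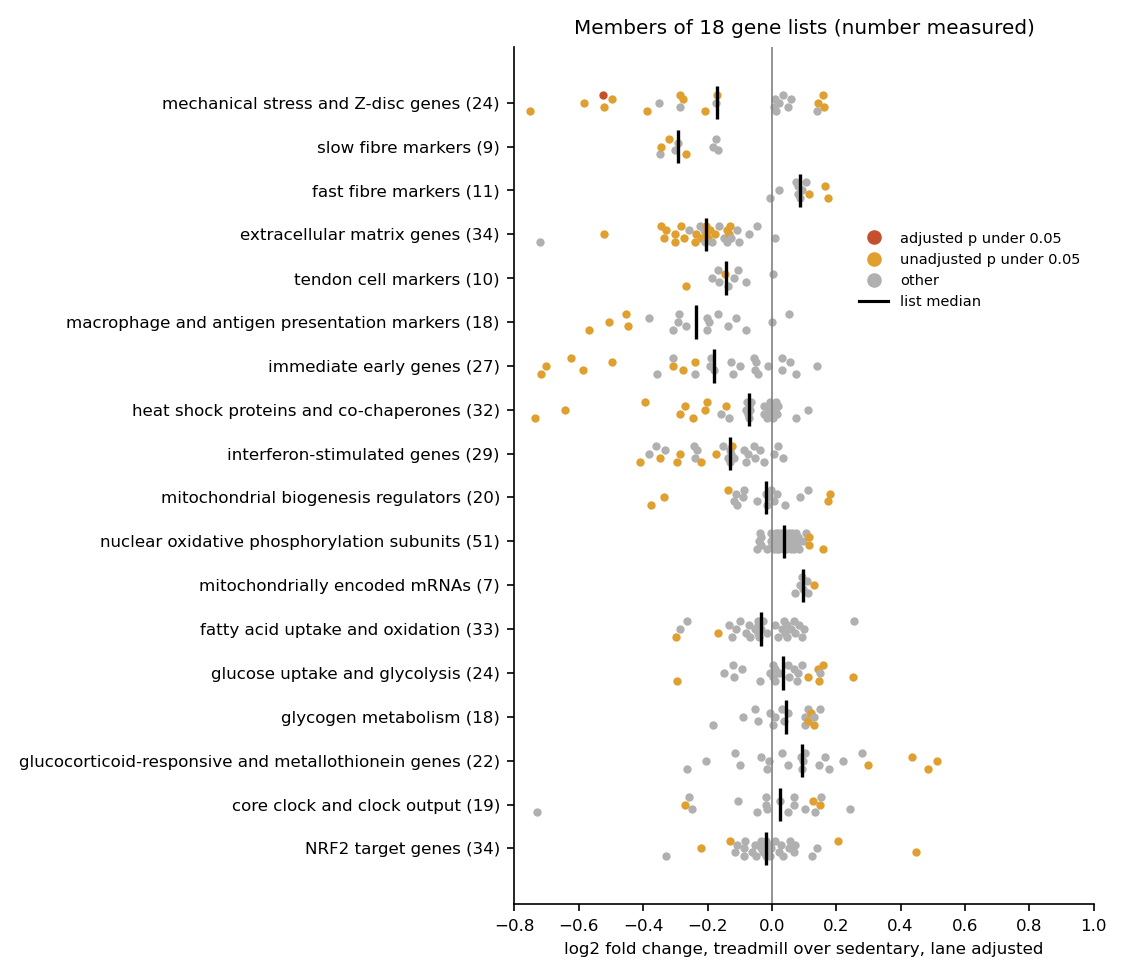
Lane-adjusted log2 fold change, treadmill over sedentary (x axis), of each measured member of 18 gene lists (rows, with the number measured). Vertical bars are list medians, red points passed an adjusted p of 0.05 and orange points have an unadjusted p under 0.05; the extracellular matrix row has 33 of 34 members below 0 and the nuclear oxidative phosphorylation row 43 of 51 above 0.

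Energy metabolism differed little. The 51 nuclear subunits of oxidative phosphorylation had a median of 0.04, with 43 above 0, which combined -0.01 in NRF2-KO (32 of 51 below 0) and 0.09 in wild type (50 of 51 above 0). The 7 measured mitochondrially encoded mRNAs had a median of 0.10, with all 7 above 0, and 0 passed in both lists. At an unadjusted p under 0.05 these lists had 3 (5.88%) and 1 (14.3%) higher and 0 lower, beside 4.34% and 5.75% of all genes. They were led by Cox6a2 (0.16, SE 0.06) and mt-Nd5 (0.13, SE 0.06). Cox6a2 had -0.01 in lane 3, 0.27 in lane 4 and 0.28 for lane 8 against lane 7. By genotype Cox6a2 had 0.05 in NRF2-KO and 0.26 in wild type. Mitochondrially encoded mRNAs were lower in lanes 7 and 8 (median log2 difference -0.42), and their treadmill median was 0.08, 0.03 and 0.25 within lanes 3, 4 and 8 against 7. Regulators of mitochondrial biogenesis had a median of -0.02 over 20 genes, with 2 higher and 3 lower. The 26 genes of the TCA cycle (0.06; 3 higher, 0 lower), 33 of fatty acid oxidation (-0.03; 0 higher, 2 lower), 16 of fatty acid synthesis (-0.14; 0 higher, 2 lower) and 17 of cholesterol synthesis (-0.09; 0 higher, 2 lower) were led by Idh3g (0.14), Fabp3 (-0.30), Scd2 (-0.40) and Mvd (-0.33). Fabp3, a fatty acid carrier, had -0.66 in NRF2-KO and 0.04 in wild type, a difference with an unadjusted p of 0.000379 and an adjusted p of 0.443 in edgeR. Of the 50-base stretches of Fabp3, 29.2% occur in other transcripts, and 19.6% of its exon bases overlap genes on the opposite strand, so its count is uncertain. Of the fatty acid oxidation genes 26 of 33 lay below 0 in NRF2-KO and 24 of 33 above 0 in wild type.

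Glycolytic genes had a median of 0.04 over 24 members, with 0 passing and 5 higher and 1 lower at an unadjusted p under 0.05. Chosen after their values were seen, Pgk1, Aldoa, Gapdh and Tpi1, all enzymes of glycolysis, had log2 fold changes of 0.15, 0.16, 0.14 and 0.11, and Ldhb, the heart-type lactate dehydrogenase, had one of -0.30. Of the 50-base stretches of Pgk1, Gapdh and Ldhb, 53.9%, 24.7% and 21.0% occur in other transcripts, so their counts are uncertain. Glycogen genes had a median of 0.04 over 18 members, with 3 higher and 0 lower, led by Epm2a (0.11), the glycogen phosphatase laforin.

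Glucocorticoid-responsive and metallothionein genes had 0 of 22 passing and 4 higher and 0 lower at an unadjusted p under 0.05, with a median of 0.09. Mt1, a metal-binding protein, had 9.32 to 20.3 CPM (median 13.1) in treadmill and 8.81 to 18.6 CPM (median 10.1) in sedentary muscle (log2 fold change 0.30, SE 0.07); it was also higher in lanes 7 and 8 (0.96, edgeR adjusted p = 3.34e-05). Fkbp5, a co-chaperone of the glucocorticoid receptor, had 55.9 to 95.5 CPM (median 64.7) in treadmill and 39.5 to 72.6 CPM (median 49.2) in sedentary muscle (0.44, SE 0.14), with 0.71 in NRF2-KO and 0.19 in wild type, and with 0.47, 0.62 and -0.38 within lane 3, lane 4 and lane 8 against lane 7. The list median was 0.39 in NRF2-KO and -0.11 in wild type. Per1, a clock gene that glucocorticoids also induce, had 6.68 to 32.1 CPM (median 13.9) in treadmill and 6.73 to 43.1 CPM (median 17.98) in sedentary muscle, a pooled log2 fold change of 0.10 (SE 0.20; 0.11, 0.43 and -0.43 within the same lanes). It was 0.77 in NRF2-KO and -0.51 in wild type, a difference with an unadjusted p of 3.22e-05 and an adjusted p of 0.114 in edgeR. The 19 clock genes had a median of 0.03 (2 higher, 1 lower).

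NRF2 target genes had a median of -0.02 over 34 members, with 0 passing and 2 higher and 2 lower, and Pgd of the pentose phosphate pathway had the smallest p (-0.22). Antioxidant enzymes (24 genes, 0.02; 2 higher, 1 lower) were led by Sod3 (-0.25). Nfe2l2 itself had a pooled log2 fold change of 0.05 (SE 0.08).

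The remaining lists had 0 members passing. Cytosolic ribosomal proteins (37 genes, 32 above 0) had a median of 0.06 and mitochondrial ribosomal proteins (32 genes) of 0.01, led by Rpl4 (0.14) and Mrpl51 (0.11). The cytosolic median was 0.01 in lane 3, 0.02 in lane 4 and 0.22 for lane 8 against lane 7. Proteasome subunits (27 genes, 24 above 0) had a median of 0.05, led by Psmc1 (0.11), and atrophy ligases and autophagy genes (26) of 0.02, led by Gabarapl1 (-0.14). Calcium handling genes (22) had a median of -0.01, led by Atp2a2 (-0.32), and neuromuscular junction genes (19) of -0.09, led by Runx1 (-0.38). Growth and signalling genes (21) had one of -0.04, led by Sik1 (-0.30), and endothelial and angiogenic genes (23) of -0.07, led by Eng (-0.24). Sik1 had -0.11 in NRF2-KO and -0.46 in wild type. Eng had -0.38 in lane 3, 0.08 in lane 4 and -0.62 for lane 8 against lane 7. The endothelial and angiogenic median was -0.07, 0.01 and -0.18 in the same order, with -0.11 in NRF2-KO and 0.04 in wild type. Satellite cell and myogenic factors (15) had a median of -0.16, led by Top2a (-0.75). Top2a had 0.31 to 1.06 CPM in treadmill and 0.50 to 1.26 CPM in sedentary muscle. Its log2 fold change was -1.48 in NRF2-KO and -0.15 in wild type, a difference that did not pass adjustment in edgeR (adjusted p = 0.679).

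**Figure D5:**
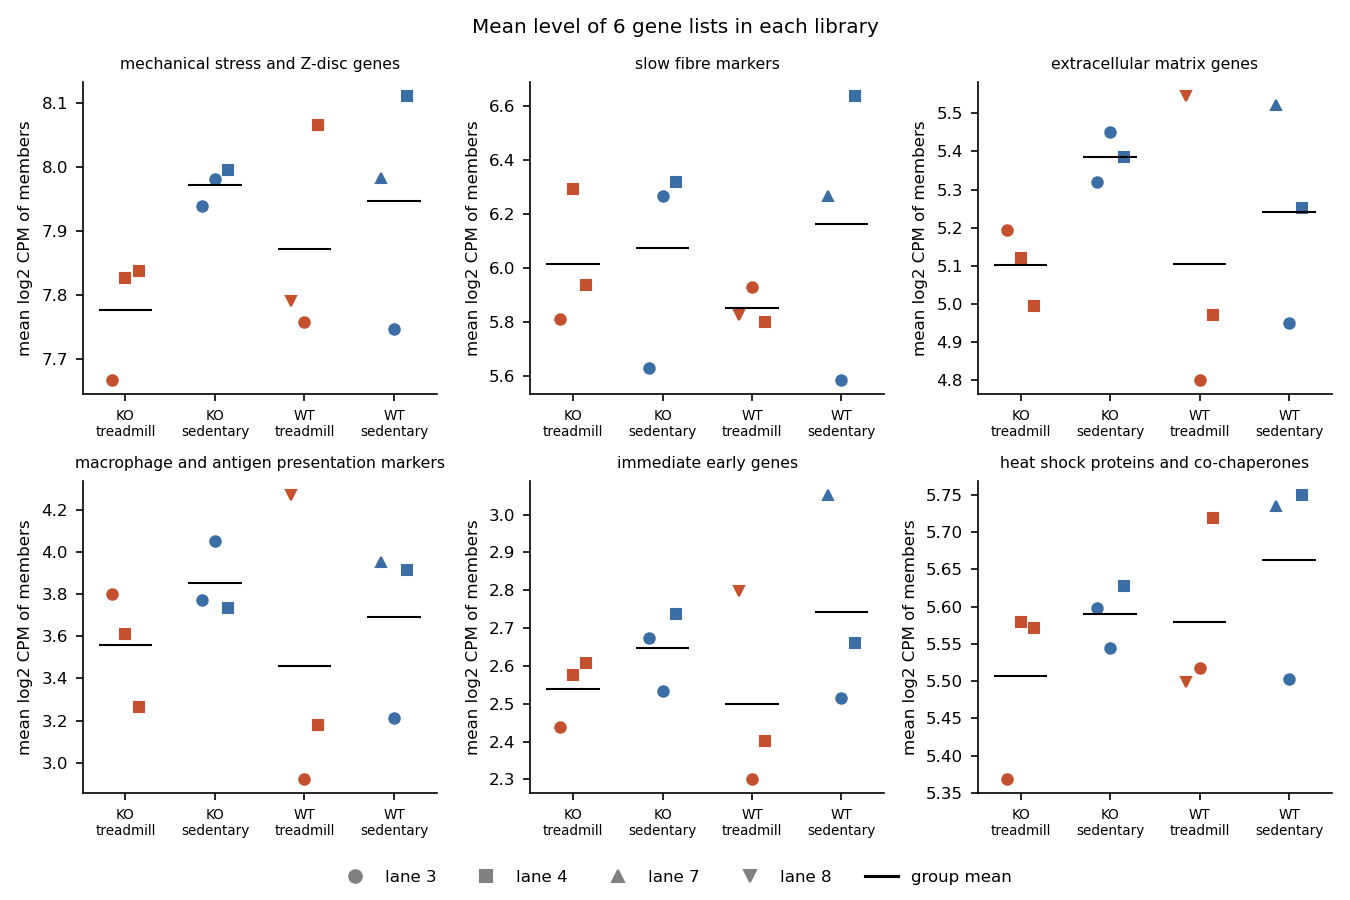
Mean log2 CPM over the members of 6 gene lists in each library by group (y axes differ and do not start at 0). Marker shape gives the lane, colour the exercise group and bars the group means; for extracellular matrix genes the libraries of lanes 8 and 7 lie above the other wild-type libraries.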

How the data were processed

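Per the labels, RNA from 12 muscle samples was made into libraries with Illumina's TruSeq RNA kit, version 2, and the sample descriptions name the lane. The authors deposited raw counts per Ensembl gene. Build GRCm38 and the tools featureCounts 1.4.6-p4, STAR 2.4.1d and bcl2fastq 1.8.4 appear in the submitters' processing notes; which annotation and counting options were used was not given in the sources used here. An RPKM table of the authors was not used here.

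Counts were tested in R 4.3.3 with edgeR 4.0.16: filterByExpr by the 4 groups (minimum count 10, minimum total 15; 14194 genes and 99.94% of counts kept), TMM scaling, and the quasi-likelihood test with genotype, exercise and lane (3, 4, and 7 with 8) as terms, leaving 7 residual degrees of freedom, at a common BCV (biological coefficient of variation) of 0.0796. Benjamini-Hochberg adjustment ran over the 14194 genes, with a threshold of 0.05, and SE is the log2 fold change over the square root of F. Effects by genotype come from a fit with the interaction added. No library was a copy of another: correlations of log2 CPM were 0.985 to 0.993 and the lowest chi-square per gene between a pair was 6.4. The scripts were tested on simulated data.

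Symbols matched 47224 genes through GENCODE on GRCm38; unmatched genes hold 0.022% of counts. Promoters are from RefSeq (GRCm38.p6), and all 4 genes that passed were matched by symbol.

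The comparison, the 43 lists (30 of pathways and 13 of cell type markers), the rule for named genes and the alternatives were chosen with earlier results of these data known, so lists are described by counts and medians without a test. The rule names 13 exercise and control genes, the genes that passed with at least 5 CPM and the same sign in both genotypes, the genes of smallest p up to 10 in each direction, and the member of smallest p of each list; 2 genes that it names are not reported here. Alternatives covered the terms, samples, scaling, test (DESeq2 1.42.0, limma-voom in limma 3.58.1) and filter.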

Additional observations from a re-analysis of the deposited data

Results flagged for a closer look

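For each of the named genes, the 6 treadmill and the 6 sedentary libraries were searched for a single library far from the other 5, by Dixon's ratio against 0.625. Chance flags about 1 in 20 groups, and 21 of 140 stood out.

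Wild-type treadmill replicate 1, on lane 8, stood apart from the other treadmill libraries in 7 genes. It had Ccn1 18 CPM (others 12.4 to 14.4 CPM), Dhrs7c 215 CPM (others 251 to 262 CPM), Fbp2 41.8 CPM (others 64.2 to 77.4 CPM), Mt1 20.3 CPM (others 9.32 to 13.2 CPM), Sod3 11.9 CPM (others 7.05 to 8.74 CPM), Pgd 14 CPM (others 10.1 to 11.4 CPM) and Col1a1 83.6 CPM (others 30.7 to 46.8 CPM).

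Wild-type sedentary replicate 1, on lane 7, stood apart from the other sedentary libraries in 6 genes. It had Hmcn2 65 CPM (others 39.4 to 47.5 CPM), Golm1 31.1 CPM (others 45 to 51.8 CPM), Mt1 18.6 CPM (others 8.8 to 11 CPM), Tnnt3 22620 CPM (others 25840 to 27650 CPM), Sik1 14.1 CPM (others 6.58 to 8.21 CPM) and mt-Nd5 16380 CPM (others 22740 to 25450 CPM). In Mt1 both libraries of lanes 8 and 7 were the highest of their group.

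Of the libraries of lanes 3 and 4, wild-type treadmill replicate 2 had Mib1 352 CPM (others 225 to 263 CPM) and Foxo6os 8.53 CPM (others 10.5 to 11.2 CPM), wild-type treadmill replicate 3 had Eng 34.6 CPM (others 21.6 to 26 CPM), and NRF2-KO treadmill replicate 3 had Nr4a3 7.97 CPM (others 1.92 to 3.96 CPM). Wild-type sedentary replicate 2 had Atp1b1 80 CPM (others 95.5 to 105 CPM), Slc2a3 25.5 CPM (others 16.2 to 19.5 CPM) and Top2a 0.497 CPM (others 1.11 to 1.26 CPM), and NRF2-KO sedentary replicate 3 had Esrrg 29.8 CPM (others 19.7 to 23.1 CPM).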

How the results depend on the processing

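Of 28 alternatives, 12 left out 1 library each. The count of 4 genes became 0 without the lane term, 0 without it and with 1 coefficient per group, 1 in lane 3 alone, 9 in lane 4 alone, 1 in wild type alone, 31 in NRF2-KO alone, 28 with the interaction added, 23 in a robust fit, 51 by DESeq2 (14 higher and 37 lower) and 321 without a filter on low counts (93 higher and 228 lower, of 26350 genes tested); the causes were not tested, beyond the fewer samples of the subsets. It was 3 without lanes 7 and 8, of which 1 (Cyfip2) was among the 4 and the others were Foxo6os and Egr1. The count was 4, the same genes, with RLE factors, limma-voom or a mean of at least 1 CPM. With upper-quartile factors it was 5, the 4 among them. Of the 4, 0 were among the genes of lane 3 alone, lane 4 alone or wild type alone, and 2 among those of NRF2-KO alone. Leaving out 1 library gave 0 to 23 genes: 0 without wild-type treadmill replicate 1, wild-type sedentary replicate 1 or NRF2-KO sedentary replicate 3, 1 without NRF2-KO sedentary replicate 1 or NRF2-KO treadmill replicate 3, 2 without NRF2-KO treadmill replicate 2, and 23, 18 and 14 without wild-type treadmill replicate 3, wild-type sedentary replicate 3 and wild-type sedentary replicate 2. Leaving out either library of lanes 7 and 8 takes both out of the exercise effect, so these 2 alternatives are not separate. Cyfip2, Lmcd1, Egln3 and Actn2 passed in 19, 14, 14 and 12 of the 28. Their log2 fold changes ran from -0.99 to -0.65, -0.65 to -0.38, -0.57 to -0.32 and -0.39 to -0.18.

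For the interaction the count of 0 became 2 by DESeq2, 1 in the robust fit, 178 without a filter and 0 to 3 with 1 library left out. The 179 genes followed were the named genes and the list members with an unadjusted p under 0.05 in edgeR. Of their 5002 values 4957 kept their sign. Most of these genes were chosen by their values in these same libraries, so this count says little about stability. The slow fibre median kept its sign in 27 of 28 and ranged from -0.52 to 0.11; that of matrix genes kept it in 28 of 28 (-0.31 to -0.15).

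Replicate numbers are shared by the groups. Same-numbered libraries' deviations from their group means correlated at 0.54, 0.30 and 0.26 in wild type and 0.17, 0.075 and 0.22 in NRF2-KO. Each treadmill library correlated best with its own number (6 of 6). NRF2-KO replicate 2, with the 1 value under 0.1, was the only number split between lanes 3 (sedentary) and 4 (treadmill). The other numbers shared a lane or were those of lanes 7 and 8. Lane was not removed from the deviations, so lane and pairing cannot be told apart here. The numbers were not taken to pair samples. A replicate block in place of genotype and lane gave 16 genes, 3 higher and 13 lower, the 4 among them.

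With 1 library each on lanes 7 and 8, and 5 on lanes 3 and 4, no within-lane value has more than 3 libraries a group.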

Other observations

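Transcripts of liver-made plasma proteins were counted at low level, with higher counts in treadmill muscle; these genes were chosen after their values were seen. Serpina3k, a serine protease inhibitor of plasma, had 60, 6 and 26 counts in NRF2-KO treadmill and 11, 12 and 8 counts in wild-type treadmill libraries, against 2, 6 and 3 counts in NRF2-KO sedentary and 1, 1 and 6 counts in wild-type sedentary libraries. Alb, serum albumin, had 42 to 510 counts (median 51) in treadmill and 17 to 43 counts (median 35) in sedentary libraries. Apoa2, an apolipoprotein of high-density lipoprotein, had 7 to 33 counts (median 9.5) in treadmill and 2 to 6 counts (median 3.5) in sedentary libraries. These counts are not scaled to library size. The log2 fold changes were 2.87 (SE 0.48) for Serpina3k, 1.91 (SE 0.51) for Alb and 1.96 (SE 0.42) for Apoa2, and none passed in edgeR (adjusted p = 0.0595, 0.241 and 0.113). NRF2-KO treadmill replicate 1 had the highest count of each; without it, an alternative added after seeing the data, the log2 fold changes were 2.12, 0.69 and 1.37 (edgeR adjusted p = 0.335, 0.441 and 0.382). Apoa1, Ttr and Fabp1, which did not pass the filter on low counts, had 56, 28 and 25 counts in all in treadmill libraries and 4, 3 and 2 counts in sedentary ones. Of these treadmill counts, 38, 21 and 17 came from NRF2-KO treadmill replicate 1 alone.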
